A study of Mus musculus with 34 samples.

Results

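The comparison described here set mouse CD4 T cell cultures labelled TfhA_4e4 against cultures labelled Tfh5_4e4. Its members were chosen by the group name in the sample titles, which gave 11 of the 34 libraries of the series, 5 of TfhA_4e4 (replicates 1, 2, 3, 5 and 6) and 6 of Tfh5_4e4 (replicates 1 to 6). All 11 were grown from C57BL/6 mouse naive CD4 T cells, which were cultured for several days, activated through plate-bound antibodies to CD3 and CD28, differentiated under the culture condition of their code, sorted by flow cytometry and sequenced from the 3′ ends of their mRNAs. The title of the series names c-Maf, a transcription factor, together with TGF-β and the choice between TH17 cells and follicular helper T cells (TFH). The labels give no genotype other than the strain, and do not say what the codes TfhA and Tfh5 or the number 4e4 stand for, which cytokines each culture received, which gate was sorted, the age of the mice, or whether replicates were separate animals or cultures. The groups are therefore called TfhA and Tfh5 after their labels. The p-values of gene changes rest on the spread between libraries within all 6 groups of the series, which may be technical.

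Naive CD4 T cells take on different helper programmes according to the cytokines present while their antigen receptor is engaged. TGF-β signals through a pair of receptor kinases to the SMAD factors, which switch on feedback inhibitors and, in T cells, genes of tissue residence and regulation, and TGF-β together with IL-6, which signals through gp130 and STAT3, yields TH17 cells that make IL-17. IL-12 and interferon-γ lead instead to TH1 cells that express T-bet, and follicular helper cells are known by CXCR5, PD-1, ICOS, Bcl6 and IL-21. c-Maf, the product of Maf, is a basic leucine zipper factor that binds the promoters of cytokine genes such as Il10 and Il21 and is expressed in TH17, TFH and IL-10 producing cells.

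Total counts per library ran from 4481509 to 8207111 in TfhA and from 6181166 to 9543117 in Tfh5 (exact permutation test, two-sided, p = 0.0563, smallest possible 0.00433). Between 12773 and 13276 genes had a count in the TfhA libraries and between 12247 and 12710 in the Tfh5 libraries. Mitochondrial ribosomal RNA, a sign of RNA composition and quality, held 14.8 ± 2.19% of the counts outside the largest 2 identifiers in TfhA (SD, n = 5) and 9.81 ± 1.24% in Tfh5 (n = 6; exact permutation p = 0.00433, adjusted 0.00722 over 5 such measures). The nuclear RNA Malat1 held 0.387 ± 0.0429% and 0.158 ± 0.0221% (exact permutation p = 0.00433). Of the genes that mark other blood cells, the haemoglobin genes and most B cell and myeloid markers stayed under the filter on low counts, and those that passed it are described after the T cell identity genes. The part of these technical differences in the results was not tested further than by a fit with the mitochondrial ribosomal RNA share as a covariate, the covariate fit, whose counts stand beside each list whose counts it changes. The mitochondrial ribosomal RNA share did not overlap between the groups (12.61 to 17.32% in TfhA, 8.37 to 11.12% in Tfh5). The covariate fit therefore cannot fully separate that share from the culture code. In bulk RNA, fewer cells that express a gene and less of its RNA per cell cannot be told apart.

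Of 11357 genes tested, 39.5% passed an adjusted p of 0.05 in edgeR's quasi-likelihood test, and such genes are called changed from here on. They were 2174 genes higher in TfhA (19.1%) and 2316 genes lower (20.4%), and the median of all tested genes was 0.00 on the log2 scale. Changes past 2-fold numbered 1071 higher (9.43%) and 952 lower (8.38%). For 2862 genes (25.2%) no TfhA library overlapped any Tfh5 library, with 12.6% of the tested genes higher and 12.6% lower. Any count for a list of genes below is to be read against these shares. The lists were chosen with earlier results of these data in view, so their counts and medians are descriptions with no test over a list.

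Levels are CPM, the counts of a gene per 1000000 counts of the normalized library total, the values of TfhA are given in the order of replicates 1, 2, 3, 5 and 6, and the value in brackets after a gene is its log2 fold change, TfhA over Tfh5, with its standard error. The standard error was derived from the edgeR test, as the size of the log2 fold change over the square root of its F statistic. It restates that test and is not a separate measure of error. Each gene was read at its 3′ end, and levels are compared only within a gene. A rule chose most of the genes named for a list by the size of their change and their level. Where 5 or fewer members of a list moved in one direction or did not pass, most of the remaining ones are named as well, and those were chosen after their values were seen.

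Maf itself (identifier 17132, chr8:115703253-115706894 in GRCm38.p6) was far lower in TfhA. Its level was 17.1, 19.9, 15.4, 22.5 and 19.3 CPM in TfhA and 774 to 927 CPM (median 839) in Tfh5. All TfhA libraries lay far below all Tfh5 libraries, with a log2 fold change of -5.48 ± 0.14 and an edgeR adjusted p of 4.70e-32. The 4 other genes that were given as markers of the comparison also separated the groups without overlap. Nrn1 (identifier 68404, chr13:36725622-36734477), which encodes neuritin, a surface protein first described in neurons and found on some T cells, was at 283, 303, 291, 392 and 399 CPM in TfhA and at 9.55 to 14.9 CPM (median 12.8) in Tfh5. S100a6 (identifier 20200, chr3:90612894-90614414), a calcium-binding protein, was at 454, 517, 588, 415 and 428 CPM and 23.5 to 32.8 CPM (median 27.7). Both were high in every TfhA library, Nrn1 (4.74 ± 0.42) with an edgeR adjusted p of 5.54e-13 and S100a6 (4.09 ± 0.27) with 3.46e-17. Aqp3 (identifier 11828, chr4:41092724-41098183), a channel for water and glycerol, was at 0, 0, 0, 0.359 and 0 CPM in TfhA and at 114 to 144 CPM (median 123) in Tfh5. Gpr15 (identifier 71223, chr16:58716643-58718872), a receptor that guides T cells to the colon, was at 0, 0, 0.332, 0 and 0 CPM and 10.7 to 19.1 CPM (median 14.9). Each of these genes had counts in a single TfhA library, 3 for Aqp3 (replicate 5) and 2 for Gpr15 (replicate 3), so a ratio of counts is given for them. It was 1178 times (95% counting interval 403 to 5716) in favour of Tfh5 for Aqp3 and 205 times (95% counting interval 56.6 to 1699) for Gpr15, where the interval covers counting error only.

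**Figure D1:**
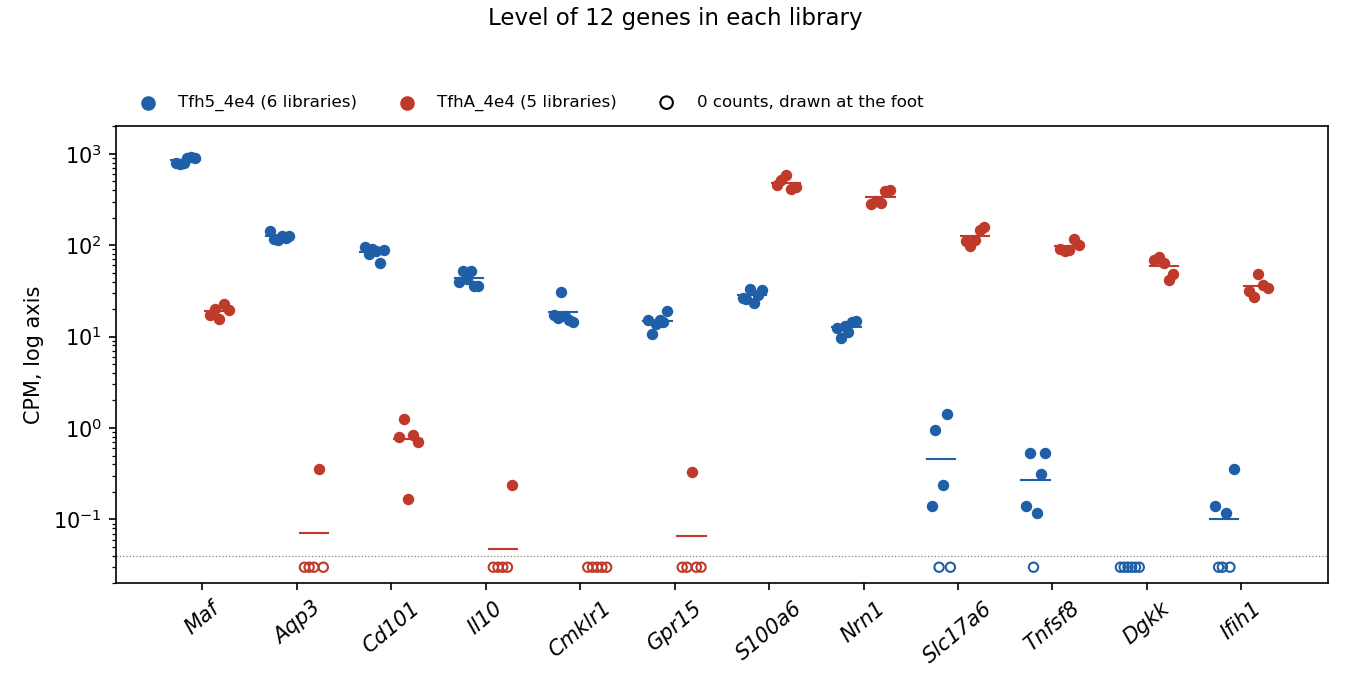
CPM on a log axis of 12 genes in each TfhA and Tfh5 library, one point per library, with a bar at the group mean and open circles at the foot for libraries with no count. The TfhA libraries lie below all Tfh5 libraries for Maf, Aqp3, Cd101, Il10, Cmklr1 and Gpr15 and above them for S100a6, Nrn1, Slc17a6, Tnfsf8, Dgkk and Ifih1.

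The third code at the same number, Tfh2_4e4 (6 libraries), lay nearer to Tfh5 for these 5 genes. Its mean level was 629.6 ± 115 CPM for Maf, 73.6 ± 8.58 for Aqp3 and 16.1 ± 2.94 for Gpr15 (SD, n = 6). For the genes high in TfhA it was 34.9 ± 27.6 CPM for Nrn1 and 31.4 ± 22 for S100a6, and 23.9 ± 6.32 and 22.5 ± 3.12 without replicate 3, the library of that group that stood apart. These comparisons share libraries, and no difference from Tfh2_4e4 was tested here.

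The 12 largest falls were taken among changed genes without overlap between the groups. Their mean log2 CPM was 3 or more over the 11 libraries or over the higher group alone. Ranked by fold, such a rule favours genes with few counts in the other group. The falls were led by genes that TfhA cultures hardly expressed. Cmklr1, the receptor of the chemoattractant chemerin, had no count in any TfhA library and was at 14.3 to 30.5 CPM (median 16.4) in Tfh5, at least 177-fold lower. The fold was computed against a floor of 3 counts over the group. Myo3b, an actin motor with a kinase domain, was at least 129.8-fold lower, Thbs1, the matrix protein thrombospondin 1 that can release active TGF-β, at least 100-fold lower, and Sertad4 at least 80.4-fold lower. Il10, the anti-inflammatory cytokine, was at 0, 0, 0, 0 and 0.235 CPM in TfhA and 35.9 to 52.5 CPM (median 41.4) in Tfh5. Its fitted change was -9.71 ± 0.43, and -11.36 without TfhA replicate 6, the library that held its only count. The others were Gphb5 (-8.48, -10.12 without TfhA replicate 1), Prss12 (-8.36, -10.01 without TfhA replicate 1), Cysrt1 (-8.19, -10.30 without TfhA replicate 3), Peli2 (-7.38, -9.48 without TfhA replicate 3), Cd101, Aqp3 and Gpr15. Over the 27 alternative fits the weakest falls were -8.6 for Il10, -7.32 for Gphb5, -7.22 for Prss12, -7.22 for Cysrt1 and -6.62 for Peli2. Cd101, an inhibitory receptor of tissue-resident T cells, was at 0.796, 1.24, 0.166, 0.839 and 0.705 CPM in TfhA and 63.6 to 96.6 CPM (median 87.2) in Tfh5. It was low in every TfhA library (-6.81 ± 0.24).

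The 12 largest rises, chosen by the same rule of no overlap between the groups, were genes at or near zero in Tfh5. Such genes are the ones that the rule favours. Dgkk, a kinase that removes the second messenger diacylglycerol, was at 68.4, 73.6, 63.7, 42.1 and 48.2 CPM in TfhA and had no count in any Tfh5 library, at least 867-fold higher. Ccn4, a secreted matrix-cell protein induced by Wnt signals, was at least 324-fold higher, Tnc, the matrix protein tenascin C, at least 212-fold, and Il3, a growth factor of myeloid progenitors, at least 189-fold. Ly6c2, a small surface protein of effector T cells and monocytes, was at least 139.7-fold higher. Tnfsf8, the CD30 ligand, was at 89.7, 87.4, 88, 118 and 101 CPM in TfhA and 0 to 0.531 CPM (median 0.228) in Tfh5. Slc17a6, a vesicular glutamate transporter known from neurons, was at 110.0, 97.4, 113, 146 and 158 CPM and 0 to 1.42 CPM (median 0.188). Their changes were Tnfsf8 (8.42 ± 0.89) and Slc17a6 (8.02 ± 0.99). Ifih1, the cytosolic RNA sensor MDA5, was at 31.2, 27.1, 48.4, 36.7 and 33.9 CPM in TfhA and 0 to 0.354 CPM (median 0.0588) in Tfh5. Its change was 8.39 ± 0.94, and 9.05 without Tfh5 replicate 6. Serpinb9, the inhibitor that shields cells from granzyme B (7.75, 9.62 without Tfh5 replicate 6), Gzmb, granzyme B itself (7.27, 8.12 without Tfh5 replicate 5), Egfr (7.15, 8.97 without Tfh5 replicate 2) and the decoy receptor Il1r2 (7.02, 7.64 without Tfh5 replicate 3) completed the 12. Over the 27 alternative fits the weakest rises were 7.45 for Ifih1, 6.8 for Serpinb9, 5.76 for Gzmb, 6.5 for Egfr and 6.59 for Il1r2.

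Most receptors and SMAD factors of the TGF-β family were lower in TfhA. Of 16 tested genes 12 fell and the other 4 did not pass, with a median of -1.09 on the log2 scale. Tgfbr1, the type I receptor kinase, was at 5.37, 4.97, 4.31, 3.12 and 4 CPM in TfhA and 17.2 to 24.5 CPM (median 19.1) in Tfh5, and Tgfbr2, the ligand-binding type II receptor, at 6.96, 7.87, 9.45, 6.71 and 6.82 and 33 to 44.9 CPM (median 38.8). No library of one group reached the other for either receptor, and the changes were Tgfbr1 (-2.23 ± 0.20) and Tgfbr2 (-2.34 ± 0.17), with edgeR adjusted p of 1.72e-12 and 1.64e-15. The bone morphogenetic protein receptor Bmpr2 (-2.54 ± 0.35) and the activin receptor Acvr2a (-1.91 ± 0.33) fell by similar amounts. Among the SMAD factors the inhibitory Smad7 (-2.39 ± 0.17) and the receptor-regulated Smad5 (-1.48 ± 0.14) fell, while Smad1 (-0.22 ± 0.17), the ubiquitin ligase Smurf1 (-0.28 ± 0.18), Bmpr1a (-0.63 ± 0.29) and Acvr2b (0.71 ± 0.55) did not pass.

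Of the genes that SMADs induce, many were nearly lost in TfhA. Of 17 tested members 11 fell, 2 rose and 4 did not pass, with a median of -1.88, and in the covariate fit 10 fell and 1 rose. Ldlrad4, which holds SMAD2 and SMAD3 away from the receptor, was at 3.98, 1.24, 1.33, 1.2 and 0.47 CPM in TfhA and 59.5 to 91.5 CPM (median 70.8) in Tfh5. Skil, a co-repressor of SMADs, was at 17.5, 13.1, 13.8, 11.6 and 9.17 and 99.7 to 143 CPM (median 120.0), and Nt5e, the ectoenzyme CD73 that makes adenosine, at 1.59, 2.69, 1.82, 3.47 and 2.12 and 143 to 189 CPM (median 169). All 3 were low in every TfhA library, with changes of Ldlrad4 (-5.46 ± 0.22), Skil (-3.18 ± 0.15) and Nt5e (-6.10 ± 0.16). Pmepa1, another feedback inhibitor of the pathway, fell by a smaller amount (-2.14 ± 0.096), as did Itgae, the CD103 integrin chain of tissue-resident T cells (-1.68 ± 0.49). Id3, a BMP and TGF-β responsive inhibitor of E proteins, was 1 of the 2 members that rose (2.01 ± 0.23). The abundant Id2 (-0.02 ± 0.089) and Rgs16 (-0.41 ± 0.22) did not pass, nor did the gut homing receptor Ccr9 (0.97 ± 0.85) or Id1 (1.04 ± 0.51).

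**Figure D2:**
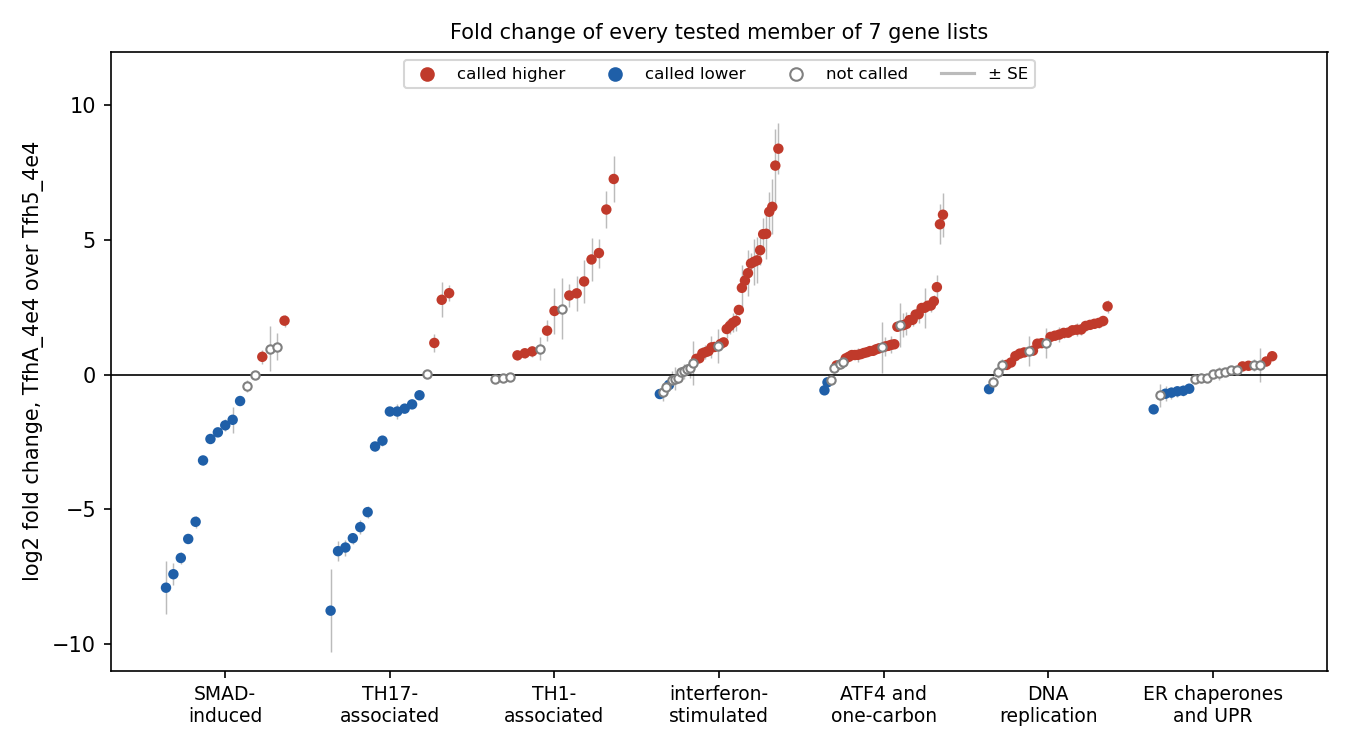
Log2 fold change, TfhA over Tfh5, on the vertical axis with its standard error (bars) for every tested member of 7 gene lists, one point per gene, coloured where edgeR called the gene and open where it did not. Most SMAD-induced and TH17-associated members lie below zero, most TH1-associated, interferon-stimulated, ATF4 and DNA replication members above it, and ER chaperones lie near it on both sides.

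In the family of Maf and its AP-1 partners 10 of 15 tested genes fell, 2 rose and 3 did not pass, and in the covariate fit 8 fell and 2 rose. After Maf, the falls of highest rank were Bach2 (-1.61 ± 0.09), a repressor that holds back effector differentiation, Jun (-1.61 ± 0.13), the small Maf protein Mafk (-1.44 ± 0.25), and Irf4 (-1.37 ± 0.095), a factor that binds together with AP-1 after receptor stimulation. Batf3 (2.21 ± 0.26) and Jund (0.48 ± 0.10) rose. Their relative Batf, which pairs with IRF4 in TH17 and TFH cells, was at 28.4 CPM in TfhA and 27.9 in Tfh5 and did not pass (0.02 ± 0.16). Neither did Nfe2l2 (0.21 ± 0.13) nor Fos (-0.28 ± 0.57).

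The TH17 list held 17 tested genes, of which 13 fell, 3 rose and Batf did not pass. Il17a was at 0.597, 0.207, 0.995, 0.719 and 0.94 CPM in TfhA and 51.1 to 95.3 CPM (median 66.8) in Tfh5, and Il17f at 0.597, 2.07, 2.32, 1.68 and 1.65 and 102 to 132 CPM (median 112). No library overlapped for either cytokine gene, and the changes were Il17a (-6.55 ± 0.38) and Il17f (-6.07 ± 0.20). Ahr, the ligand-activated receptor that supports TH17 and IL-22 producing cells, was at 5.17, 1.66, 6.13, 1.56 and 1.41 CPM in TfhA and 106 to 113 CPM (median 112) in Tfh5 (-5.10 ± 0.21). Ccl20, the ligand of CCR6, had no count in TfhA and was at least 66.8-fold lower. Tmem176a (-6.42 ± 0.30) and Tmem176b (-5.66 ± 0.25) fell together, but these genes overlap on the chromosome and their reads may not be told apart. Il23r, the receptor of the cytokine that sustains TH17 cells, went the other way and rose (3.03 ± 0.30). The other rises were Il24 (1.18 ± 0.35) and Cd5l (2.78 ± 0.65).

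TH1 genes were higher in TfhA. Of 17 tested members 12 rose and the other 5 did not pass, with a median of 2.37, and 9 rose in the covariate fit. Ifng stayed under the filter with 3 counts in all 11 libraries. Tbx21, which encodes T-bet, was at 22.1, 37.7, 36, 26.5 and 27.7 CPM in TfhA and 0 to 0.791 CPM (median 0.595) in Tfh5. Cxcr3, the receptor of interferon-induced chemokines and a T-bet target, was at 26.5, 30.9, 36.8, 22 and 27.7 and 0.421 to 1.95 CPM (median 1.38), and Il12rb2, the signalling chain of the IL-12 receptor, at 26.3, 18.4, 15.4, 23.4 and 28 and 1.4 to 4.75 CPM (median 2.36). Every TfhA library lay above every Tfh5 library for these genes, with changes of Tbx21 (6.13 ± 0.69), Cxcr3 (4.52 ± 0.54) and Il12rb2 (2.94 ± 0.41). The edgeR adjusted p of Tbx21 was 6.69e-10. The chemokines Ccl5 (4.28 ± 0.81) and Ccl3 (3.02 ± 0.65) and the IL-18 receptor chain Il18r1 (1.63 ± 0.39) rose as well. The abundant members Runx3 (-0.09 ± 0.10) and Il12rb1 (-0.16 ± 0.14) did not pass, nor did Ccl4 (0.97 ± 0.43) and Il18rap (2.45 ± 1.14).

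Genes tied to TFH cells split, with 9 of 25 tested members higher, 11 lower and 5 not passing. Cxcr5, the receptor that leads TFH cells into follicles, was at 1.99, 0.622, 0, 0.599 and 0.235 CPM in TfhA and 7.88 to 16.1 CPM (median 12.9) in Tfh5 (-4.18 ± 0.39, and -4.97 without TfhA replicate 1). Its weakest fall over the alternative fits was -3.85. Il6st, the gp130 chain through which IL-6 signals, was at 1.39, 2.49, 2.65, 1.92 and 2.82 and 14.6 to 22.3 CPM (median 20.2) (-3.11 ± 0.25), and Angptl2 (-3.07 ± 0.18) fell too. Il21, the cytokine by which TFH cells help B cells, was at 29.2, 37.7, 38.3, 34.4 and 31.7 CPM in TfhA and 69.4 to 80.1 CPM (median 72.3) in Tfh5 (-1.10 ± 0.13). In the other direction, Icos was at 283, 204, 222, 242 and 247 CPM in TfhA and 35.6 to 49.8 CPM (median 40.5) in Tfh5, and Btla, an inhibitory receptor of TFH cells, at 49.5, 70.7, 65.5, 74 and 68.4 and 6.05 to 7.79 CPM (median 7.01). Both were high in all TfhA libraries, by 2.53 ± 0.16 for Icos and 3.24 ± 0.21 for Btla. Cd200, a ligand of an inhibitory receptor, rose (3.16 ± 0.22), and Tnfsf8 belongs to this list too. Pdcd1, which encodes PD-1, was at 59.3, 45.4, 44.9, 38 and 35.3 CPM in TfhA and 38.8 to 58.9 CPM (median 50.1) in Tfh5, so that the groups overlapped and it did not pass (-0.13 ± 0.18). Il6ra (-0.29 ± 0.18), the partner of gp130, did not pass either, nor did P2rx7 (0.88 ± 0.46), Ascl2 (1.41 ± 0.74) and Batf. Bcl6, the defining factor of TFH cells, stayed under the filter, with 6 counts in all TfhA libraries together and 38 in Tfh5.

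Of 5 tested TH2-associated genes 3 rose, Il10 fell and 1 did not pass. Gata3, the factor of TH2 cells, was at 23.9, 15.5, 12.1, 14 and 24.5 CPM in TfhA and 2.69 to 9.4 CPM (median 5.67) in Tfh5 and rose (1.65 ± 0.29), as did Ccr4 (0.74 ± 0.20) and Nfil3 (0.75 ± 0.12), while Il4ra (0.04 ± 0.11) did not pass and Il4 had no count in any of the 11 libraries. Foxp3, the factor of regulatory T cells, had no count in TfhA and 23 counts in Tfh5, and stayed under the filter. Prdm1, which encodes Blimp-1, had 16 and 22 counts. Of 15 tested genes associated with regulatory T cells 10 fell, 4 rose and 1, Gpr83, did not pass (0.56 ± 0.65), and in the covariate fit 9 fell and 3 rose. Ctla4, the receptor that competes with CD28, was at 47.7, 54.5, 47.6, 58.6 and 36.9 CPM in TfhA and 125 to 228 CPM (median 138) in Tfh5, with every TfhA library lower (-1.66 ± 0.18). Il2ra (-0.95 ± 0.094), the IL-2 receptor chain that gives high affinity, fell less. The 4 rises were those of the OX40 gene Tnfrsf4 (1.74 ± 0.12), the GITR gene Tnfrsf18 (1.57 ± 0.11), Nrp1 (0.74 ± 0.17) and Lrrc32 (1.51 ± 0.24), which presents latent TGF-β.

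Among secreted cytokines, some of which belong to the helper lists too, 6 of 17 tested genes rose, 9 fell and 2 did not pass, and in the covariate fit 5 rose and 9 fell. Lta, lymphotoxin alpha, rose (2.25 ± 0.16) and Il3 was described above, whereas Csf1 (-1.58 ± 0.25) and Il16 (-1.44 ± 0.18) fell and the abundant Ltb (-0.13 ± 0.24) and Tnfsf14 (0.66 ± 0.41) did not pass. Of 5 tested chemokine genes Ccl3 and Ccl5 rose, Ccl20 fell, and Ccl4 (0.97 ± 0.43) and Xcl1 (0.68 ± 1.0) did not pass, though Ccl4 did in the covariate fit (1.62).

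The cytokine receptors changed in both directions, with 8 of 26 higher, 11 lower and 7 not passing, and 8 higher and 10 lower in the covariate fit. Il10ra, the ligand-binding IL-10 receptor chain, was at 12.9, 7.05, 8.95, 12.3 and 13.9 CPM in TfhA and 0 to 2.93 CPM (median 1.56) in Tfh5 (2.83 ± 0.45), in the opposite direction to Il10. Tnfrsf1b (-2.18 ± 0.22), the TNF receptor of activated T cells, and Il17ra (-1.93 ± 0.18) fell, and Crlf2 (0.08 ± 0.15) did not pass. Of 17 genes for STAT factors and their induced genes 6 fell, 4 rose and 7 did not pass, against 4 and 3 in the covariate fit. Stat3, which carries the IL-6 and IL-23 signals, was at 358, 471, 477, 467 and 424 CPM in TfhA and 876 to 1204 CPM (median 1073) in Tfh5 (-1.26 ± 0.12), and Stat5b (-1.33 ± 0.16) fell alongside. Stat4 (0.72 ± 0.17), which carries the IL-12 signal, and the kinase Pim2 (0.96 ± 0.16) rose, as did Stat2 (0.61 ± 0.16) and Cish (0.47 ± 0.10), while Pim1 (-0.07 ± 0.098) and Stat5a (-0.11 ± 0.13) did not pass.

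Of 12 costimulatory genes 8 rose and 4 fell, with a median of 1.53, and in the covariate fit 8 rose and 3 fell. Beside receptors the list holds the ligand genes Tnfsf8 and Cd40lg, which are among the rises. Tnfrsf9, the receptor 4-1BB that marks activated T cells, was at 320.1, 444, 360.0, 373 and 349.8 CPM in TfhA and 71 to 111 CPM (median 107) in Tfh5, and Cd226, which competes with inhibitory receptors for nectin ligands, at 13.5, 11.2, 9.78, 16.7 and 12.9 and 0 to 1.22 CPM (median 0.383). Neither overlapped between the groups, and the changes were Tnfrsf9 (1.91 ± 0.18) and Cd226 (4.61 ± 0.82). The 4 that fell were Cd28 (-0.57 ± 0.095), Cd27 (-1.03 ± 0.13), Tnfrsf25 (-0.39 ± 0.16) and Cd2 (-0.33 ± 0.09). In the SLAM family, whose members bind each other between lymphocytes, Slamf6 (3.16 ± 0.77), Slamf7 (3.04 ± 0.28), Slamf1 (1.49 ± 0.18) and Cd84 (1.12 ± 0.17) rose, and Cd48 (0.52 ± 0.25) and Ly9 (0.40 ± 0.35) did not pass. Sh2d1a (-1.03 ± 0.23), which encodes their adaptor SAP, fell, as did Sh2d2a (-1.24 ± 0.12), another T cell adaptor that the list also holds. Of 12 co-inhibitory genes 4 rose and 4 fell. The PD-1 ligand genes Cd274 (3.99 ± 0.42) and Pdcd1lg2 (2.72 ± 0.36) rose with Btla and Cd200, whereas Lair1 (-1.97 ± 0.42) fell with Cd101 and Ctla4, and the fourth fall was the checkpoint ligand Vsir (-0.84 ± 0.12). Cd96 (-0.44 ± 0.27), Cd160 (1.92 ± 0.90), Cd5 (-0.06 ± 0.11) and Pdcd1 did not pass.

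**Figure D3:**
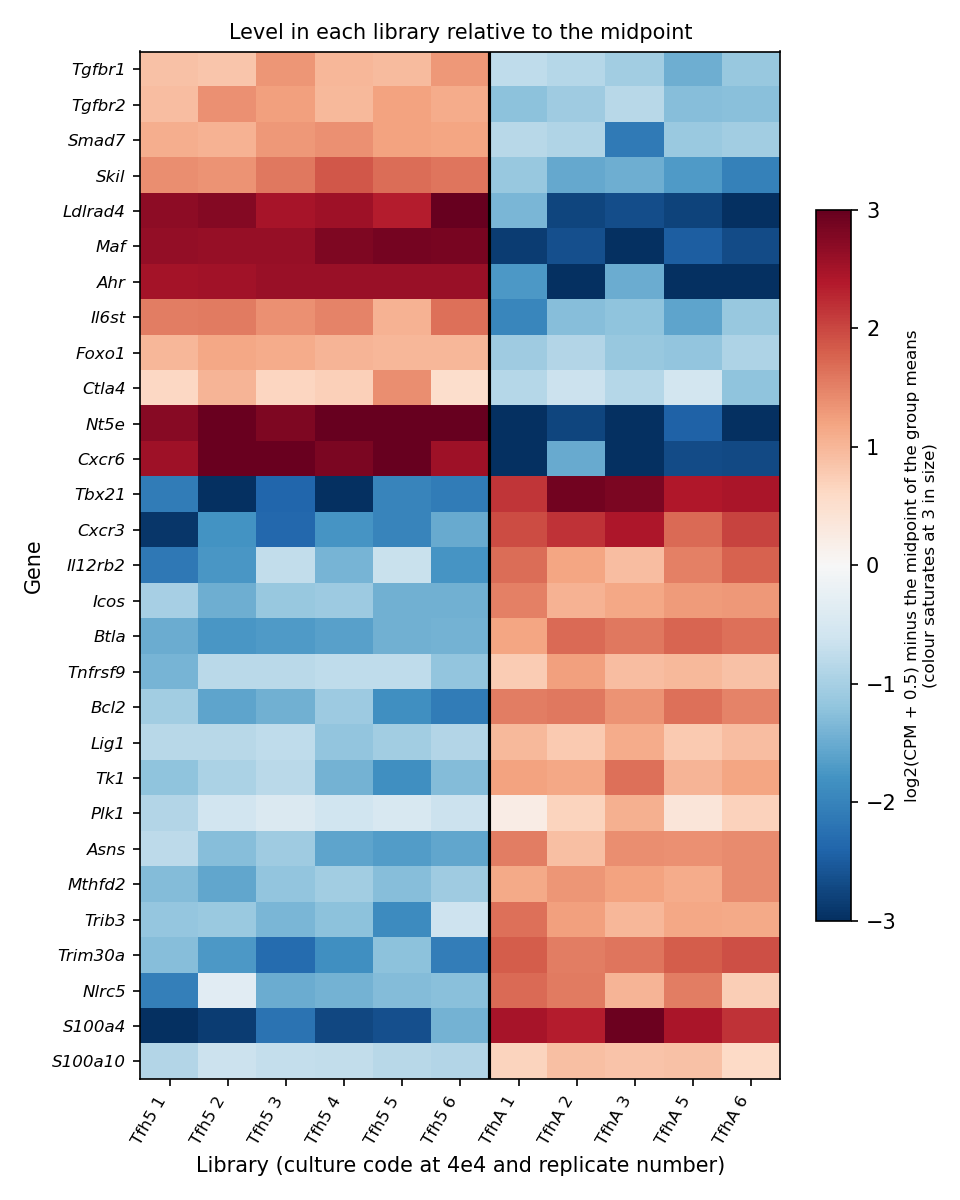
Levels of 29 genes in the 5 TfhA and 6 Tfh5 libraries, as log2(CPM + 0.5) minus the midpoint of the group means, with the colour saturating at 3 log2 units. Each gene has one sign across the TfhA columns and the other across the Tfh5 columns, with receptors of the TGF-β family, Maf and Ctla4 lower in TfhA and Tbx21, Icos, Lig1, Asns and S100a4 higher.

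Homing receptors followed no single direction, with 6 of 20 higher, 9 lower and 5 not passing, and 5 higher and 9 lower in the covariate fit. Cxcr6, a receptor of tissue-resident T cells, fell (-6.14 ± 0.28, and -6.88 without TfhA replicate 2), with a weakest fall of -5.85 over the alternative fits. Cxcr4, the receptor of the stromal chemokine CXCL12, was at 8.75, 16, 18.2, 12.7 and 18.3 CPM in TfhA and 49.5 to 97.6 CPM (median 75.6) in Tfh5 (-2.29 ± 0.22). The integrin chain Itga4 (2.29 ± 0.26) rose. Cd44 (0.29 ± 0.12), Itgb7 (-0.07 ± 0.10), S1pr1 (-0.41 ± 0.17), Ccr2 (-0.50 ± 0.37) and Ccr9 did not pass.

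Small calcium-binding S100 proteins were mostly higher in TfhA: of 7 tested members 6 rose and S100a3 did not pass (0.78 ± 0.57). S100a4 was at 103, 95.5, 143, 102 and 84.2 CPM in TfhA and 1.82 to 6.55 CPM (median 2.44) in Tfh5, and S100a10, the partner of annexin A2, at 732, 868, 831, 846 and 705 and 251 to 296 CPM (median 268). Both were high in every TfhA library, by 5.10 ± 0.46 for S100a4 and 1.56 ± 0.092 for S100a10, and S100a11 (1.80 ± 0.16), S100a1 (1.10 ± 0.20) and S100a13 (0.59 ± 0.11) rose as well. S100a8 and S100a9, the neutrophil members, stayed under the filter. In the Ly6 family Ly6a (0.96 ± 0.096), which encodes Sca-1, and Ly6e (0.71 ± 0.085) rose with Ly6c2, Ly6k (-2.11 ± 0.28) fell and Ly6c1 (0.02 ± 0.15) did not pass. Ly6c1 and Ly6c2 are close paralogs, and reads shared between them would be uncertain.

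Among 10 tested genes that handle extracellular ATP and adenosine, 3 enzymes that degrade nucleotides fell. They were Nt5e, as above, Entpd1 or CD39 (-3.41 ± 0.70, and -7.70 without TfhA replicate 6) and Cd38 (-4.58 ± 0.34, and -5.18 without TfhA replicate 6). Entpd1 was at a low level, 0.376 CPM on average in TfhA and 3.41 in Tfh5. Over the 27 alternative fits Entpd1 ranged from -8.01 to -1.67 and kept its call in 26. Cd38 ranged from -5.57 to -3.78. Both tested adenosine receptors rose. Adora2a was at 6.76, 16.6, 17.9, 16.7 and 19.5 CPM in TfhA and 2.23 to 3.53 CPM (median 2.68) in Tfh5 (2.49 ± 0.33), and Adora2b changed by 3.12 ± 0.32. Dpp4, the surface peptidase CD26 that binds adenosine deaminase, rose (2.43 ± 0.27), the receptor P2ry10 (-1.18 ± 0.24) fell, and P2rx4 (0.11 ± 0.31), P2rx7 (0.88 ± 0.46) and Ada (1.31 ± 0.62) did not pass. Among regulators of G protein signalling, Rgs9 (1.33 ± 0.46) and Rgs2 (0.75 ± 0.15) rose and Rgs10 (-1.96 ± 0.093) fell. The third rise, Rgs11 (0.78 ± 0.29), was 0.67 without Tfh5 replicate 2, 0.68 without Tfh5 replicate 6 and 0.67 without TfhA replicate 6, and did not pass in these fits. In the covariate fit 2 of the 10 tested members fell and these 3 rises did not pass.

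**Figure D4:**
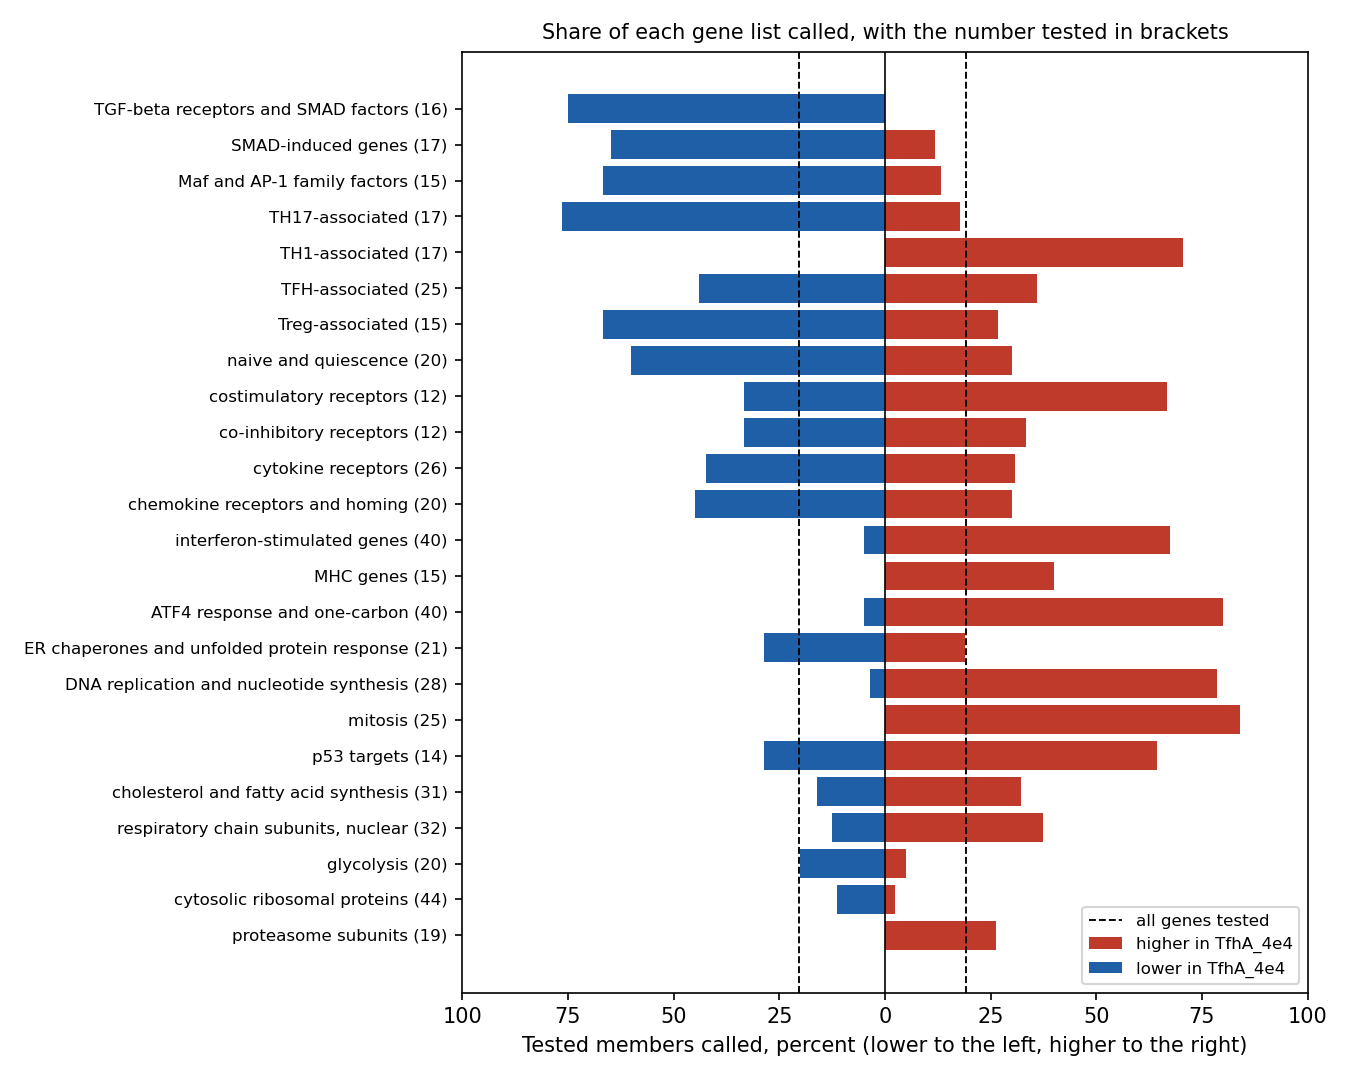
Share of the tested members of 24 gene lists that edgeR called higher (bars to the right) or lower (bars to the left) in TfhA, in percent, with dashed lines at the shares over all genes tested, 19.1% higher and 20.4% lower. Mitosis (84.0%), ATF4 (80.0%) and DNA replication (78.6%) have the longest bars to the right, and TH17 (76.5%) and TGF-β receptors (75.0%) the longest to the left.

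Genes induced by interferons, which make antiviral proteins, were mostly higher in TfhA. Of 40 tested members 27 rose, Ifi47 (-0.72 ± 0.13) and Gbp2 (-0.38 ± 0.10) fell and 11 did not pass, with a median of 1.10, and 23 rose and 2 fell in the covariate fit. Part of this set is known to be switched on by a complex that holds STAT2 and IRF9, through an element that spells GAAA, any 2 bases and GAAA again. The 300 bases from 250 before to 50 after each transcript start (RefSeq, GRCm38.p6) were searched for it on both strands. It stood in 3.44% of all 32851 windows and near 3.72% of the 8853 tested genes that matched a window, and near 18 of the 31 matched members, 11 of the 20 that rose and 7 of the 11 others. The motif was chosen after the data were seen, and a match is a description, not a binding site. Windows of 3 members that rose and of Gbp5, which did not pass, are shown 5′ to 3′ on the strand of the gene, with the matched bases in capitals.
Gbp7, chr3:142530257-142530318, + strand: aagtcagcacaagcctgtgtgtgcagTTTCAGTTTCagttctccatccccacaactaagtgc
Oas3, chr5:120777699-120777760, - strand: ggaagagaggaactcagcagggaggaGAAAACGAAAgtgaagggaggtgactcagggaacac
Trim30a, chr7:104465194-104465255, - strand: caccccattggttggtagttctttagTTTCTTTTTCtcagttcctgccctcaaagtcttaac
Gbp5, chr3:142496743-142496804, + strand: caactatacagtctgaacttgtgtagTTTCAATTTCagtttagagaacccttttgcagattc

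Gbp7, a guanylate-binding GTPase of antimicrobial defence, was at 25.5, 16.4, 22.2, 25.4 and 26.3 CPM in TfhA and 0.561 to 2.24 CPM (median 1.27) in Tfh5. Oas3, which makes the second messenger that activates RNase L, was at 17.5, 19.1, 19.1, 23.6 and 27 and 0 to 1.27 CPM (median 0.511), and Trim30a, an inhibitor of inflammatory signalling, at 157, 129, 136, 156 and 169.5 and 8.42 to 18.4 CPM (median 12.5). No library overlapped for these genes, and their changes were Gbp7 (4.13 ± 0.38), Oas3 (5.22 ± 0.60) and Trim30a (3.49 ± 0.24). Gbp5, with the same motif, was at 19.1, 14.5, 20.1, 20 and 23 CPM in TfhA and 14.6 to 21 CPM (median 18.3) in Tfh5, which overlapped (0.09 ± 0.20). Gbp8 (6.05 ± 0.74) and Trim30d (4.62 ± 0.55) rose too. Irf9 (0.20 ± 0.13), a member of the complex itself, did not pass. The Gbp, Trim30 and class I MHC genes have near-identical copies, and how reads that fit several places were counted is not given in the sources used here. Of 15 tested genes of antigen presentation 6 rose and the other 9 did not pass. Nlrc5, the activator of class I genes, was at 25.1, 22.6, 15.4, 22.3 and 12.7 CPM in TfhA and 1.4 to 5.73 CPM (median 2.58) in Tfh5 (2.73 ± 0.32). H2-Q7 (1.85 ± 0.29), the peptide transporter Tap1 (1.20 ± 0.14), H2-D1 (1.18 ± 0.14), B2m (1.03 ± 0.096) and H2-K1 (0.43 ± 0.089) rose with it, while Tapbp (0.02 ± 0.14), H2-T22 (0.68 ± 0.35) and the class II gene H2-Ab1 (0.23 ± 0.21) did not pass.

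The list with the most rises was that of ATF4, the factor of the integrated stress response that raises amino acid synthesis, transfer RNA charging and one-carbon metabolism when amino acids run short. Of 40 tested members 32 rose, Ddit4 (-0.58 ± 0.10) and Slc38a2 (-0.28 ± 0.10) fell and 6 did not pass, with a median of 1.03, and 27 rose and 1 fell in the covariate fit. ATF4 with its partners is known to bind composite elements of the form TGATGNAA. Within the same windows that sequence stood in 3.97% of all windows, near 2.76% of matched tested genes and near 11 of 32 matched members, 10 of 25 that rose and 1 of 7 others. The windows of Asns and Pck2 and, chosen after its value was seen, Chac1 are shown, with that of Vldlr, a lipoprotein receptor that did not pass. The capitals mark the match, which can lie on either strand.
Asns, chr6:7693210-7693258, - strand: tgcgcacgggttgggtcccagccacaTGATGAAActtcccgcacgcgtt
Pck2, chr14:55540137-55540196, + strand: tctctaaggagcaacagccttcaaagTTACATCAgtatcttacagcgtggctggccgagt
Chac1, chr2:119351023-119351082, + strand: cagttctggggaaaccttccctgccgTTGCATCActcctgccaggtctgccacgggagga
Vldlr, chr19:27216794-27216853, + strand: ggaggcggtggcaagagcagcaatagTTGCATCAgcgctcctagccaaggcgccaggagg

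Asns, asparagine synthetase, was at 45.2, 28.8, 40.8, 40.1 and 41.1 CPM in TfhA and 4.43 to 8.56 CPM (median 5.36) in Tfh5. Trib3, a pseudokinase that feeds back on ATF4, was at 34.4, 25.7, 21.7, 24.4 and 24.2 and 2.53 to 6.72 CPM (median 4.36), and Mthfd2, the mitochondrial one-carbon enzyme of dividing cells, at 271, 309, 283, 267 and 328 and 41.6 to 59.9 CPM (median 52.6). TfhA was higher in every library for all 3, with changes of Asns (2.73 ± 0.24), Trib3 (2.57 ± 0.26) and Mthfd2 (2.48 ± 0.14). The mitochondrial enzyme Pck2 (2.56 ± 0.19), the cysteine-making enzyme Cth (5.58 ± 0.75) and the secreted Stc2 (3.25 ± 0.45) rose as well. Chac1 (5.94 ± 0.81), which degrades glutathione, had the largest fitted change of the list from a low level in Tfh5 (0.194 CPM on average). Vldlr (0.24 ± 0.18), Mthfd1l (-0.19 ± 0.11) and the tryptophan transfer RNA ligase Wars (0.38 ± 0.16) did not pass. Atf4 itself rose (1.05 ± 0.35), and it too was named after its value was seen.

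Amino acid transporters did not move as one. Of 16 tested 6 rose, 5 fell and 5 did not pass, and in the covariate fit 4 rose and 4 fell. Slc7a5, the large neutral amino acid transporter of activated T cells and an ATF4 target, was at 9.35, 13.3, 7.63, 18.3 and 16 CPM in TfhA and 1.18 to 6.49 CPM (median 3.24) in Tfh5 (1.89 ± 0.43), and Slc1a4 (1.11 ± 0.32) rose. Slc16a10 (-2.04 ± 0.17), Slc43a2 (-1.72 ± 0.14), Slc7a6 (-1.08 ± 0.17), Slc38a1 (-1.0 ± 0.12) and Slc38a2 fell, and Slc6a6 (-0.17 ± 0.14), Slc38a9 (0.40 ± 0.19), Slc36a1 (-0.18 ± 0.48), Slc36a4 (-0.03 ± 0.70) and Slc6a9 (1.84 ± 0.83) did not pass. Chaperones of the endoplasmic reticulum and genes of the unfolded protein response, another arm of stress signalling, had 4 rises, 6 falls and 11 members that did not pass among 21, with a median of 0.04. The main chaperone Hspa5 (BiP) was at 275, 247, 299, 308 and 286 CPM in TfhA and 236 to 267 CPM (median 254) in Tfh5, which overlapped (0.16 ± 0.082). Pdia3 (-0.16 ± 0.10) and Pdia6 (-0.14 ± 0.11) did not pass, Dnajc3 (-1.29 ± 0.12), an inhibitor of the kinase PERK, fell, and Sel1l (0.68 ± 0.12), of the degradation complex, Herpud1 (0.49 ± 0.16), Hsp90b1 (0.33 ± 0.12) and Canx (0.31 ± 0.10) rose. The covariate fit had 2 rises and 1 fall.

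Genes of DNA replication and nucleotide synthesis were higher in TfhA, with 22 of 28 tested members rising, 1 falling and 5 not passing and a median of 1.29. Lig1, the ligase that joins Okazaki fragments, was at 322, 285, 356, 284 and 313 CPM in TfhA and 71.8 to 96.6 CPM (median 90) in Tfh5. Tk1, thymidine kinase, was at 44.2, 43.3, 61, 38.9 and 44 and 4.91 to 10.6 CPM (median 7.71), and Cdc45, a part of the replicative helicase, at 34.2, 24.2, 33.8, 28.2 and 23 and 6.17 to 8.54 CPM (median 7.06). Every TfhA library was above every Tfh5 library for each, with changes of Lig1 (1.85 ± 0.13), Tk1 (2.54 ± 0.23) and Cdc45 (1.99 ± 0.18), and Cdc6 (1.92 ± 0.19), Rfc3 (1.89 ± 0.15) and Rfc5 (1.81 ± 0.18) rose too. The abundant Mcm4 (0.12 ± 0.22), Fen1 (0.35 ± 0.25) and Gins1 (-0.26 ± 0.26) did not pass, nor did Rfc4 (0.87 ± 0.54) and Gins2 (1.17 ± 0.55). The member that fell was Mcm6, a helicase subunit (-0.54 ± 0.12), which did not pass in the covariate fit, where 22 again rose. The E2F factors are known to bind TTTCCCGC and TTTGGCGC, and 1.56% of all windows, windows near 3.73% of matched tested genes, and windows of 9 of 23 matched members held at least 1 of these (8 of 20 that rose, 1 of 3 others). The windows of Cdc6 and Mcm6 are shown because their genes changed in opposite directions and both hold a match, which the capitals mark.
Cdc6, chr11:98907987-98908046, + strand: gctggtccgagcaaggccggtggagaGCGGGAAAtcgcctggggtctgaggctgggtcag
Mcm6, chr1:128359719-128359778, - strand: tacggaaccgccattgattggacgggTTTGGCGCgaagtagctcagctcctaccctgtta

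Mitosis genes rose in 21 of 25 tested cases, and the other 4 did not pass, with a median of 0.97, and 18 rose in the covariate fit. Plk1, the kinase that drives mitotic entry, was at 54.1, 73.8, 97.1, 59.1 and 74.5 CPM in TfhA and 25 to 34.3 CPM (median 30.5) in Tfh5 (1.24 ± 0.17). Birc5 (1.38 ± 0.15), Mad2l1 (1.20 ± 0.17), Bub1 (1.19 ± 0.22), Cenpe (1.12 ± 0.17) and Nusap1 (1.10 ± 0.11) rose, whereas Cenpa (-0.42 ± 0.18), Prc1 (-0.05 ± 0.093), Aurkb (0.22 ± 0.25) and Kif20a (0.97 ± 0.51) did not pass. Of 19 genes that control entry into the cycle 10 rose and 2 fell, and in the covariate fit 8 rose and 2 fell. Ccnd3, cyclin D3, was at 16.7, 18.9, 14.3, 12.9 and 8.7 CPM in TfhA and 2.12 to 5.49 CPM (median 3.12) in Tfh5 (2.03 ± 0.31). Ccne1 (0.94 ± 0.18) and Ccne2 (1.08 ± 0.18) rose, the inhibitors Cdkn2c (1.15 ± 0.38) and Cdkn1a (0.98 ± 0.13) rose, and the inhibitors Cdkn1b (-1.03 ± 0.11) and Rb1 (-0.79 ± 0.18) fell. Cdk4 (0.19 ± 0.095) did not pass.

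Targets of p53, the DNA damage factor that induces Cdkn1a, rose in 9 of 14 cases and fell in 4, against 7 and 3 in the covariate fit. Phlda3 (2.72 ± 0.27), Aen (1.68 ± 0.46), Ccng1 (1.37 ± 0.12) and Sesn2 (1.84 ± 0.44) rose, of which Sesn2 is also an ATF4 target, Trp53inp1 (-1.60 ± 0.16), Pmaip1 (-1.33 ± 0.19), Btg2 (-0.80 ± 0.11) and Sesn1 (-0.75 ± 0.27) fell, and Bax (0.43 ± 0.43) did not pass. In the Bcl2 family 5 of 15 rose and 4 fell, against 4 and 3 in the covariate fit. Bcl2, the survival factor, was at 142, 147, 125, 156 and 138 CPM in TfhA and 11.1 to 23.4 CPM (median 17) in Tfh5, high in every TfhA library (3.01 ± 0.18). Bcl2l1 (1.13 ± 0.15), which encodes Bcl-xL, and the pro-death Bak1 (0.90 ± 0.23), Bbc3 (0.84 ± 0.16) and Bad (0.36 ± 0.12) rose. The survival gene Mcl1 (-0.60 ± 0.082) and the pro-death Bmf (-1.86 ± 0.53), Bcl2l11 (-0.47 ± 0.17) and Pmaip1 fell.

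Few glycolysis genes passed. Of 20 tested 15 did not, among them the abundant Pkm (0.05 ± 0.099), Ldha (-0.02 ± 0.12) and Tpi1 (-0.31 ± 0.13), 4 fell and 1 rose, and in the covariate fit 2 fell and 1 rose. Pfkfb3 (-1.05 ± 0.15), which drives glycolytic flux, Aldoc (-0.89 ± 0.15), Gpi1 (-0.32 ± 0.095) and Aldoa (-0.24 ± 0.098) fell and Hk2 (0.24 ± 0.098) rose. Neither of the last named was called in every fit without a single library (for Hk2 0.19 without TfhA replicate 3, for Aldoa -0.17 without TfhA replicate 6). Some members that did not pass had low counts, where a change is hard to call. Gapdh was at 4.04 CPM on average in TfhA and 3.85 in Tfh5, Pgk1 at 5.95 and 6.6, and Eno1 at 8 and 15.8. Of 20 hypoxia-induced genes outside glycolysis 8 fell and 4 rose, against 6 and 3 in the covariate fit, and Nrn1 was the largest of the rises. P4ha1 (-1.23 ± 0.12), Mxi1 (-1.05 ± 0.11), Plin2 (-0.63 ± 0.18) and Bnip3l (-0.62 ± 0.12) fell and Ero1a (0.63 ± 0.13), Vegfa (0.41 ± 0.17) and Fam162a (0.34 ± 0.09) rose. Cholesterol and fatty acid synthesis had 10 rises and 5 falls among 31, with a median of 0.10, and 8 and 3 in the covariate fit. Hmgcs1 (0.89 ± 0.11) and Fdps (0.76 ± 0.14), early enzymes of the sterol pathway, rose, the cholesterol exporter Abcg1 (-0.80 ± 0.24), Mylip (-2.33 ± 0.55), Insig1 (-0.62 ± 0.23) and Sc5d (-0.53 ± 0.14) fell, and Cyp51 (0.02 ± 0.11) and Mvd (0.03 ± 0.15) did not pass.

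For the nuclear-encoded subunits of the respiratory chain, 12 of 32 rose, 4 fell and 16 did not pass, and Cycs (1.14 ± 0.31), cytochrome c, rose most. The falls included Uqcrfs1 (-0.61 ± 0.15), Ndufs1 (-0.28 ± 0.11) and Ndufa1 (-0.63 ± 0.23), the last of which did not pass without Tfh5 replicate 2 or 5 or TfhA replicate 1 or 6 (-0.58, -0.52, -0.54 and -0.52). In the covariate fit 17 rose, and the 4 falls were not called. Of the 8 tested mRNAs of the mitochondrial genome ND1, ND2, ND4, ND5 and COX1 rose and ND3 (0.35 ± 0.36), ND6 (0.32 ± 0.26) and CYTB (0.38 ± 0.18) did not pass. ND2 was at 2856, 2048, 2807, 4529 and 3923 CPM in TfhA and 1056 to 2096 CPM (median 1749.7) in Tfh5 (0.95 ± 0.20), and TfhA replicate 2 lay within the range of Tfh5. The ribosomal RNAs mt-Rnr2 (0.62 ± 0.13) and mt-Rnr1 (0.64 ± 0.11) rose as well. In the covariate fit the 5 rises among the mRNAs did not pass, ND2 at 0.03, and of the 8 only ND6 was called, as a fall (-0.71). The median of the 8 was then 0.03. That covariate is built from mt-Rnr1 and mt-Rnr2, RNAs of the same mitochondrial genome. A change that the mRNAs share with them is removed with it, so the lost calls cannot decide whether the mRNAs differ. The genes COX2, COX3, ATP6, ATP8 and ND4L had no count in any of the 11 libraries, so the measured mRNAs are a part of the mitochondrial genome.

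Genes of naive and resting T cells fell in 12 of 20 cases and rose in 6, against 11 and 5 in the covariate fit. Foxo1, the factor that keeps T cells quiescent, was at 87.5, 98.2, 82.4, 80.4 and 95.7 CPM in TfhA and 361 to 405 CPM (median 366) in Tfh5 (-2.08 ± 0.092), and Igfbp4 (-1.74 ± 0.10) and Bach2 fell, while Klf3 (1.18 ± 0.33) and Id3 rose and Tob1 (-0.02 ± 0.30) and S1pr1 did not pass. Early response genes, which follow recent receptor stimulation, had 6 falls, 3 rises and 8 members that did not pass among 17. The falls were Nr4a1 (-1.68 ± 0.59), Jun (-1.61 ± 0.13), Myc (-0.90 ± 0.35), Nfkbid (-0.71 ± 0.29), Junb (-0.43 ± 0.15) and Egr1 (-0.36 ± 0.13). The last 2 were named after their values were seen. Over the 27 alternative fits Nr4a1 kept its call in 22, Myc in 17 and Nfkbid in 13. Cd69 (0.99 ± 0.19), Nr4a2 (0.89 ± 0.17) and Dusp2 (0.53 ± 0.16) rose, and Egr2 (-0.02 ± 0.24), Ier2 (-0.41 ± 0.17) and Ier3 (0.05 ± 0.13) did not pass. The covariate fit had 3 rises and 3 falls. Of the T cell identity genes 6 of 12 fell and the other 6 did not pass, with a median of -0.30, and 5 fell in the covariate fit. Cd3e was at 161, 151, 109, 125 and 154 CPM in TfhA and 174 to 207 CPM (median 196) in Tfh5 (-0.46 ± 0.12), and Lat, an adaptor of the receptor, fell more (-0.99 ± 0.12).

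Of 44 ribosomal protein genes 38 did not pass, with a median of -0.13, and in the covariate fit 2 fell and 1 rose. Some of the 44 had low counts, where a change is hard to call. Rps9 was at 0.386 CPM on average in TfhA and 0.892 in Tfh5, Rps27 at 1.73 and 1.1, and Rpl12 at 8 and 3.97. Rpl12 (0.99 ± 0.35) rose and Rpl32 (-0.52 ± 0.17), Rpl23 (-0.49 ± 0.11), Rps20 (-0.45 ± 0.16) and Rplp2 (-0.41 ± 0.13) fell. Of these 5 only Rpl23 kept its call in every fit without a single library, and the values then were 0.81 for Rpl12 without Tfh5 replicate 5, -0.43 for Rpl32 without TfhA replicate 1, -0.36 for Rps20 without Tfh5 replicate 1 and -0.34 for Rplp2 without TfhA replicate 1. Of 24 ribosome biogenesis genes Polr1b (1.0 ± 0.25), Srm (0.69 ± 0.16), Nop56 (0.68 ± 0.17), Utp20 (0.50 ± 0.19) and Nop58 (0.41 ± 0.16) rose, Myc (-0.90 ± 0.35) fell and 18, among them Ncl (-0.34 ± 0.17), did not pass, and in the covariate fit 4 rose and 4 fell. The calls of Utp20, Nop58 and Myc were lost in several fits without a single library, with values down to 0.42 (without Tfh5 replicate 4), 0.32 (without TfhA replicate 5) and -0.71 (without Tfh5 replicate 5). Among the most abundant changed genes, Eef1a1, the elongation factor that delivers transfer RNAs, was at 523, 2086, 1896, 2550.1 and 1444 CPM in TfhA and 2031 to 4216 CPM (median 3519.8) in Tfh5, and Fth1, the iron store ferritin heavy chain, at 526, 467, 464, 479 and 539 and 1429 to 1694 CPM (median 1555). Both fell, Eef1a1 (-1.03 ± 0.32) and Fth1 (-1.65 ± 0.11), and the groups overlapped for Eef1a1, whose level in replicate 1 of either group was the lowest of that group. Of 19 proteasome subunits 5 rose and 14 did not pass. The rises were those of the immunoproteasome subunit Psmb10 (1.10 ± 0.23), Psma3 (1.18 ± 0.32), the activator Psme1 (0.62 ± 0.096), Psma7 (0.61 ± 0.089) and Psmc1 (0.30 ± 0.10), of which Psmc1 did not pass without Tfh5 replicate 3 (0.23) or TfhA replicate 1 (0.27).

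Markers of other cells were low. Of 8 CD8 and NK cell markers 3 passed the filter on low counts. Klrk1 (3.57 ± 0.75), which encodes the NKG2D receptor, rose, Klrd1 (-1.33 ± 0.37) fell and Cd8b1 (0.23 ± 0.26) did not pass. Klrk1 was at 2.38 and did not pass in the covariate fit. The summed level of these 8 markers was 19.5 to 26.3 CPM in TfhA and 14.5 to 19.5 CPM in Tfh5, and Cd8a stayed under the filter. Of 8 B cell markers only Ebf1 passed, at 5.17, 15.1, 14.3, 12.2 and 8.7 CPM in TfhA and 0.733 to 1.29 CPM (median 0.968) in Tfh5 (3.42 ± 0.56). The sum of the 8 markers was 5.77 to 15.1 CPM in TfhA and 0.949 to 2.48 CPM in Tfh5, nearly all of it Ebf1, and the defining B cell gene Cd79a had no count in any of the 11 libraries. Of 10 myeloid markers only Xcr1 passed, and it fell (-4.91 ± 0.51, and -6.12 without TfhA replicate 5). Its weakest fall over the alternative fits was -3.95. The sum of the myeloid markers was 0.207 to 2.98 CPM in TfhA and 2.65 to 6.58 CPM in Tfh5.

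The positions of the changed genes were compared between neighbours. Of 11068 pairs of adjacent tested genes, the 968 that overlap were left out, and both genes had changed by more than 2-fold in 423 of the others. Of these, 150 pairs were higher for both genes, 145 were lower for both and 128 were opposite, which gives 69.7% in one direction, where all possible pairs of such genes give 50.1%. No test was made of this share. The following pairs were chosen after their values were seen. Tnfsf8 and Tnc lie 98.3 kb apart on chromosome 4 and rose by 8.42 and 9.76 on the log2 scale. Il12rb2 and Il23r, receptor genes of the TH1 and TH17 fates, lie 46.6 kb apart on chromosome 6 and rose by 2.94 and 3.03. Cd274 and Pdcd1lg2 lie 22.8 kb apart on chromosome 19 and both rose, and Il17a and Il17f lie 42.6 kb apart on chromosome 1 and both fell. Ctla4 and Icos, 44.9 kb apart on chromosome 1, changed in opposite directions, by -1.66 and 2.53.

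Between libraries, the correlation of log2 levels was 0.944 to 0.968 (Pearson's r across genes, which are not independent replicates) within TfhA, 0.950 to 0.974 within Tfh5 and 0.792 to 0.840 between them. The codes differ in an unstated culture condition, so no difference here can be assigned to a single agent. The 34 libraries of the series hold no TfhA replicate 4.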

How the data were processed

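RNA of sorted CD4 T cells was read by 3′ mRNA sequencing (Lexogen, forward kit), per the labels' protocols. The authors deposited 1 table of raw counts per library. STAR 2.7.2b and featureCounts 1.6.4 stand in the submitters' processing notes beside mm10, with no role given. The strand setting and the treatment of reads that fit several places are not given in the sources used here, so counts of overlapping genes, antisense genes and close paralogs are uncertain. Of 27179 identifiers 25275 were matched to a symbol by RefSeq's GRCm38.p6 gene table. The other 1904 held 44.96% to 52.52% of the counts of a library in the 2 groups, nearly all in 2 identifiers.

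All 34 libraries in 6 groups were fitted in edgeR 4.0.16 (R 4.3.3) with TMM factors, the filter filterByExpr by group (minimum count 10) and two-sided quasi-likelihood F-tests of TfhA_4e4 minus Tfh5_4e4, adjusted by Benjamini and Hochberg over the 11357 genes tested, with a threshold of 0.05. The groups not compared serve the shared estimate of spread. CPM are counts per 1000000 of the TMM-scaled total, the large identifiers included. Total counts were 4481509 to 9543117 per library in the 2 groups, and counting intervals (95%, exact) and the floor of 3 counts for a count of 0 cover counting error only.

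The 12 largest rises and falls were taken among called genes whose groups did not overlap. Their mean log2 CPM was 3 or more over the 11 libraries or over the higher of the 2 groups. Named genes are those, the 5 markers, lineage genes, the 6 most abundant called genes each way, and members of 48 gene lists. For lists of over 10 tested members these are up to 6 called genes with the largest change at a mean log2 CPM of 1 or more and up to 3 abundant genes not called, and every member of shorter lists. Some genes given by the rule are left unnamed, and some members of the lists are counted but not reported here by name. The members, lists and named genes' rule were chosen with earlier results of these data known.

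On simulated counts of 11124 genes no call had the wrong sign, and 3.45% of calls were false. The simulation changed 99 of the tested genes by 1 and 100 by 2 on the log2 scale, in TfhA only. In the data 39.5% of the genes were called, so the simulated shares need not hold for them. Motifs were searched in RefSeq promoter windows of GRCm38.p6. Alternatives changed the scaling, filter, tool (DESeq2 1.42.0, limma 3.58.1), covariates and libraries.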

Additional observations from a re-analysis of the deposited data

Results flagged for a closer look

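Within the 5 TfhA and the 6 Tfh5 libraries, Dixon's test asked whether the highest or lowest library of a gene stood apart. It was made for most of the genes named in the report, where they had at least 30 counts in the group, 542 groups in all. Of these, 33 held a library past the critical value (6.09%), and chance alone gives about 1 in 20. The values follow as CPM of the library that stood apart, with the range of the other libraries of its group in brackets. Tfh5 replicate 1 was the highest for Myo3b at 23.7 (9.44 to 13.3), Cd8b1 at 13.5 (6.23 to 8.71), Jun at 156 (115 to 129) and Plin2 at 92.4 (52.4 to 67.2), and the lowest for Eef1a1 at 2031 (3485 to 4216). Tfh5 replicate 2 was the highest for Itgb7 at 134 (110.1 to 119) and Nlrc5 at 5.73 (1.4 to 2.83), and the lowest for Mxi1 at 82.9 (104 to 109). Tfh5 replicate 3 was the highest for Cmklr1 at 30.5 (14.3 to 17.4), Ada at 2.08 (0.177 to 0.633) and Polr1b at 7.81 (4.59 to 5.66), and the lowest for Psmc1 at 57.4 (72.8 to 81.4). Tfh5 replicate 4 was the highest for Cd2 at 446 (393 to 413) and Rgs11 at 15.8 (5.66 to 8.86), and the lowest for Cd38 at 14.1 (19.7 to 22.4) and Slc7a6 at 15.9 (23.5 to 27.2). Tfh5 replicate 6 was the highest for S100a4 at 6.55 (1.82 to 3.54). TfhA replicate 1 was the highest for Il2ra at 1096 (869.8 to 928), Lat at 206 (134 to 147), Il6ra at 26.5 (15.1 to 18.1), Ldlrad4 at 3.98 (0.47 to 1.33), H2-D1 at 83.2 (67.2 to 70.7), Plin2 at 52.5 (40 to 42.7) and Rps20 at 2880.5 (1886 to 2136), and the lowest for Stat5a at 92.5 (134 to 143) and Adora2a at 6.76 (16.6 to 19.5). TfhA replicate 2 was the highest for Cth at 29.6 (17.2 to 19.9). TfhA replicate 3 was the highest for Il1r2 at 28.8 (23 to 24) and Tk1 at 61 (38.9 to 44.2). TfhA replicate 5 was the highest for Nusap1 at 279 (209 to 228), and the lowest for Il3 at 9.46 (13.4 to 14.3). TfhA replicate 6 was the highest for Cd28 at 371 (297 to 311), and the lowest for Il4ra at 271 (318 to 337).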

How the results depend on the processing

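Under all but 1 of the alternatives the count of genes called stayed within 1.5 times of 4490. It was 4517 with RLE size factors, 4528 with upper quartile factors, 4309 with library totals only, 4817 without a filter, 4126 with a filter at 30 counts, 4667 with DESeq2, 4385 with limma-voom, 3534 with the mitochondrial ribosomal RNA share as a covariate and 3283 with replicate numbers 1 to 3 only. With replicate numbers 4 to 6 only, which keeps 2 TfhA libraries and 3 Tfh5 libraries, it was 2832. With only the 11 libraries of the 2 groups it was 4397. Without replicate 3 of Tfh2_4e4 and replicate 6 of Tfh2_2e4, which serve the estimate of spread, it was 4615. Leaving out 1 library at a time gave 4180 to 4389 genes, and 1971 to 2048 past 2-fold. Upper quartile factors shifted the median of all genes by 0.07 and made 55.4% of the calls rises, against 48.4%. Of 9402 values of the 349 tested named genes under the alternatives, 9010 kept their side of the threshold, of which 138 belong to genes called under neither setting and have the other sign, 216 lost the call, 171 gained one and 5 reversed. A reversed value has the other sign and a call in at least 1 of the 2 fits compared. All 5 came from the mitochondrial ribosomal RNA covariate: ND5 -0.13, ND6 -0.71, Nop58 -0.25, Npm1 -0.46 and mt-Rnr2 -0.10. That covariate is itself built on mt-Rnr2. ND6 and Npm1 were not called in the main fit, so they gained a call there and had no called change to reverse. 

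Samples with the same replicate number were not paired. Of 5 pairs 4 correlated above 0.1 (0.0912 to 0.375) after removal of the group means, and 4 of the 5 TfhA libraries correlated best with their own number, a hint from the data and not the design. A fit with the replicate number as a block called 4807 genes (4737 with only the 11 libraries, chosen after the data were seen), and that number 1 to 3 or 4 to 6 as a factor 4767. In simulated data a change of 1 on the log2 scale was called for 55.6% of changed genes and a change of 2 for 85.0%. Far fewer genes were changed there than were called in the data, so these shares need not hold here. A gene that did not pass is not shown to be equal.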

Other observations

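Heat shock genes moved in both directions. Of 8 tested heat shock genes, Hspa1b (-2.72 ± 0.49) and Hspa1a (-2.01 ± 0.59), the stress-induced HSP70 genes, fell in TfhA, while the cytosolic chaperone Hsp90aa1 (0.50 ± 0.13) and the mitochondrial chaperonins Hspd1 (0.56 ± 0.11) and Hspe1 (0.51 ± 0.094) rose, and in the covariate fit Hsp90aa1 did not pass (0.14). The constitutive Hspa8 (-0.01 ± 0.29) and the co-chaperones Hsph1 (-0.05 ± 0.13) and Dnajb1 (-0.16 ± 0.12) did not pass. Hspa1a and Hspa1b are near-identical copies, and their reads may not be told apart.

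Some cytokine genes outside the naming rule, chosen after their values were seen, also differed. Il2 (3.46 ± 0.81), the T cell growth factor, and Tnfsf11 (3.72 ± 0.64), which encodes RANKL, rose, and Il9 (-4.35 ± 0.78) fell.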
